A study of Rattus norvegicus with 12 samples.

Results

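The miR-130/miR-301 and miR-148/miR-152 families are groups of miRNAs that share the first bases with which an miRNA recognises its targets. Their 3p arms were chosen by name from the rat miRNA array, as miR-130a, miR-130b, miR-301a, miR-301b, miR-148a, miR-148b and miR-152 with the suffix -3p. The array held 6 of them among 727 probes: rno-miR-130a-3p, rno-miR-130b-3p, rno-miR-301a-3p, rno-miR-301b-3p, rno-miR-148b-3p and rno-miR-152-3p; rno-miR-148a-3p was not analysed here. The families were picked with the normalized levels of these 12 arrays already known, so levels and differences of the members are given as a description, without a test.

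The measurements came from extracellular vesicles (EVs), small membrane particles that cells release and that carry RNA. RNA from EVs in conditioned medium was labelled with the dye Cy3 and bound to an array with probes for rat miRNAs, and the brightness of a probe is its intensity. EVs of 4 kinds of cultured cells were compared, with 3 arrays each, after 2 days in medium without serum. Thy1-MCs, which the labels call liver stem cells and the methods describe as Thy1-positive mesenchymal cells, came from livers of male F344/Nslc rats of 8 to 10 weeks, taken 3 days after d-galactosamine, a hepatotoxin. Before EV isolation the epithelial colonies of these cultures were detached and collected apart, so the mesenchymal cells are what remained on the dish. Small hepatocytes (SHs), the hepatocytic progenitor cells of the labels, and mature hepatocytes (MHs), the parenchymal cells, came from healthy livers of 8 to 12 weeks. Mesenchymal stem cells (MSCs) were bone marrow mesenchymal cells, and no source used here gives the age or treatment of their donors. By the labels, SHs grew on hyaluronic acid, MHs on type I collagen and the 2 mesenchymal cultures on plastic, although the methods state collagen-coated dishes for Thy1-positive cells. Cell type, injury and culture surface therefore cannot be told apart. No source says whether the 3 arrays of a group came from separate cultures, so the spread that the p-values rest on may be technical.

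An miRNA guides the RNA-induced silencing complex to messenger RNAs that pair with its seed, bases 2 to 8, and these are then repressed. In mouse and human cells the miR-130/miR-301 family is known to repress PPARG, a nuclear receptor of fat storage that also keeps hepatic stellate cells quiescent. The miR-148/miR-152 family is known to repress DNMT1, the enzyme that maintains DNA methylation through cell division.

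The mature sequences of 5 members of the seed groups were found in RefSeq (GRCr8), each 5′ to 3′ with the seed in capitals, and they are shown because the seed defines the families and the bases after it separate the probes.
rno-miR-130a-3p: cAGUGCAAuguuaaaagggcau
rno-miR-130b-3p: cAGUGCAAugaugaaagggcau
rno-miR-301b-3p: cAGUGCAAugguauugucaaagc
rno-miR-148b-3p: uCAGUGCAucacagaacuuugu
rno-miR-152-3p: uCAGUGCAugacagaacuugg

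The families read the same 7 letters in a shifted frame: CAGUGCA is bases 1 to 7 of the 3 miR-130/miR-301 sequences and bases 2 to 8 of the 2 miR-148/miR-152 sequences. Likeness beyond the seed varied within the families. rno-miR-130a-3p and rno-miR-130b-3p were identical at 20 of 22 positions, and rno-miR-148b-3p and rno-miR-152-3p at 19 of 21. rno-miR-301b-3p matched rno-miR-130a-3p at 13 of 22 and rno-miR-130b-3p at 12 of 22, close to the 11 of 20 that rno-miR-130b-3p and rno-miR-152-3p shared in the shifted frame across families. How far a probe also binds its near-identical relative was not tested, and values within such a pair are uncertain to that extent.

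The genes lie apart in the genome. rno-miR-130a-3p maps to chr3:90229240-90229261 on the minus strand, in no annotated gene span other than its own, with the coding gene Ypel4 1833 bases away. rno-miR-301b-3p (chr11:97384077-97384099) and rno-miR-130b-3p (chr11:97384430-97384451) lie on the plus strand within the span of 2610318N02Rikl, and their hairpins are 269 bases apart. rno-miR-148b-3p (chr7:136299930-136299951, plus strand) lies within Copz1 and rno-miR-152-3p (chr10:82329435-82329455, plus strand) within Copz2, 2 paralogous genes for subunits of the COPI vesicle coat. The hairpin of rno-miR-301a-3p lies at chr10:72422599-72422698 within the spans of Prr11 and Ska2.

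The arrays differed in ways that touch every comparison with MHs. Between 174 and 359 probes were detected on the 9 other arrays and between 425 and 528 on the 3 MH-EV arrays. The first spike-in control read 5139 to 7915 on MH-EV arrays and 28678 to 32905 on the others, and the mean of the blank spots was 59.8 to 77.9 against 96.8 to 136. Detection was lenient, since 44.4% to 76.7% of the spots without a probe also passed the limit. Levels below are log2 intensities after background correction and quantile normalization, which gives all arrays the same distribution of values.

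rno-miR-130a-3p was highest in SH-EVs and, with quantile normalization but not with the spike-in controls or the authors' normalization, lowest in MH-EVs. Its normalized log2 level was 11.17, 12.07 and 11.89 on the SH-EV arrays. It was 9.73, 10.16 and 10.53 on the Thy1-MC-EV arrays and 9.50, 10.06 and 9.94 on the MSC-EV arrays. On the MH-EV arrays it was 8.09, 8.13 and 8.79. The SH-EV arrays lay above all others and the MH-EV arrays below all others, while both mesenchymal sources overlapped. The group means were 11.71 ± 0.48, 10.14 ± 0.40, 9.83 ± 0.29 and 8.34 ± 0.40 (SD, n = 3 each) in SH-EVs, Thy1-MC-EVs, MSC-EVs and MH-EVs.

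rno-miR-130b-3p followed the same order with quantile normalization, while with the spike-in controls MH-EVs ranked first. Its level was 7.96, 8.87 and 8.79 in SH-EVs and 6.46, 6.39 and 6.64 in MH-EVs. In Thy1-MC-EVs it was 7.29, 7.27 and 7.55, and in MSC-EVs 7.28, 7.55 and 7.27. The mesenchymal sources covered the same range, with means of 7.37 and 7.36, and SH-EVs and MH-EVs stood clear of them on either side.

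rno-miR-148b-3p varied less between sources with quantile normalization, while with the spike-in controls its means ran from 6.12 in MSC-EVs to 8.71 in MH-EVs. Its level was 7.27, 8.20 and 8.13 in SH-EVs, 6.92, 7.35 and 7.93 in Thy1-MC-EVs, 6.92, 7.09 and 6.94 in MSC-EVs and 6.79, 6.69 and 7.27 in MH-EVs. It was detected on 11 arrays, all but the first MSC-EV array. SH-EVs lay above MSC-EVs without overlap, and every other pair of sources overlapped.

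rno-miR-152-3p, its family relative, spread most among arrays of 1 source. Its level was 8.30, 9.50 and 9.38 in SH-EVs and 8.14, 8.87 and 9.58 in Thy1-MC-EVs. It was 7.64, 8.41 and 7.70 in MSC-EVs and 7.36, 7.36 and 8.66 in MH-EVs. All pairs of sources overlapped, and the SD within a source ran from 0.42 to 0.75.

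**Figure D1:**
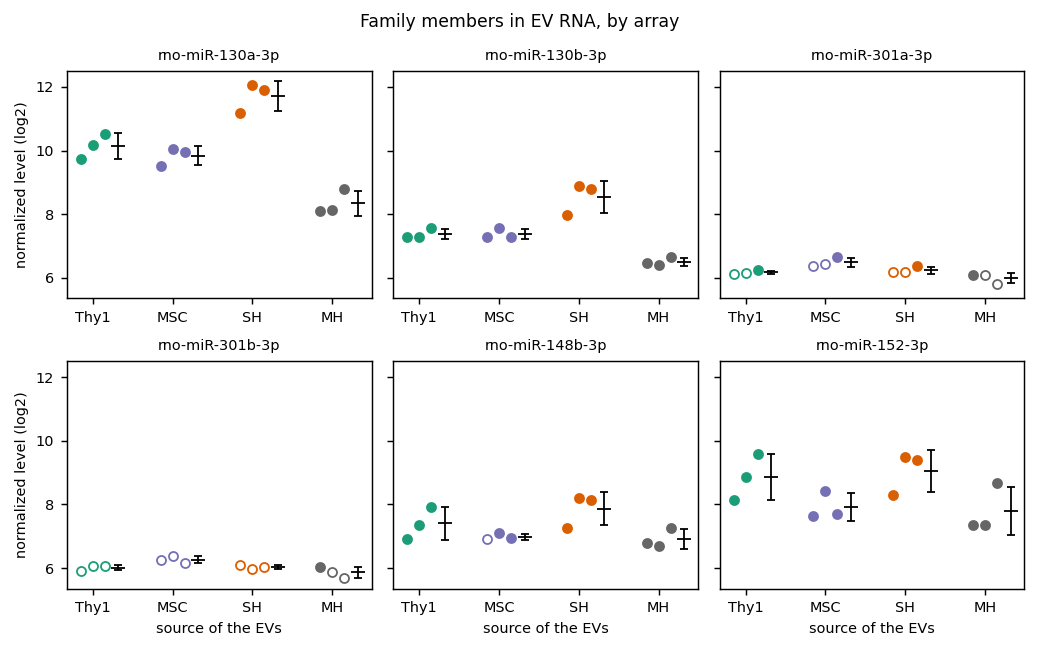
Normalized log2 level of the 6 members on each of the 12 arrays, by source of the EVs; filled circles are detected values, open circles values at or under the detection limit, and black bars the mean ± SD of 3 arrays. The SH-EV arrays of rno-miR-130a-3p (11.17 to 12.07) and rno-miR-130b-3p (7.96 to 8.87) lie above all others after quantile normalization (with the spike-in controls MH-EVs rank first for the latter), and rno-miR-301a-3p and rno-miR-301b-3p stay near the limit.

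The remaining members of the miR-130/miR-301 family were at the detection limit. rno-miR-301a-3p was detected on 4 arrays, 1 of each source, with raw intensities of 123, 126, 122 and 85.0 against limits of 120.6, 122.4, 113.4 and 80.4. rno-miR-301b-3p was detected on 1 array, the first of MH-EVs, at 81.4 against 80.4. Neither was detected on all arrays of a source, so neither was tested. Although rno-miR-301b-3p and rno-miR-130b-3p lie in 1 cluster, only the latter was detected on all 12 arrays. Their levels are not set against each other, because each probe binds with its own strength.

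The partner arms were also at the limit. The 6 hairpins also give a 5p arm each, and all 6 had probes. rno-miR-148b-5p was detected on 3 arrays (raw intensities of 129.7, 144.4 and 82.0 against limits of 120.6, 137 and 80.4) and rno-miR-301a-5p on 1 (113.7 against 113.4), and rno-miR-130a-5p, rno-miR-130b-5p, rno-miR-301b-5p and rno-miR-152-5p on none. No partner arm was detected on all arrays of a source, so 0 of 6 were tested, and a difference between sources was not detectable in them.

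Before normalization the picture for MH-EVs was different. The raw intensity of rno-miR-130a-3p was 1297, 5272 and 3745 in SH-EVs, 478.5, 1414 and 2449 in Thy1-MC-EVs, 341.8, 1139 and 406.2 in MSC-EVs and 506, 365.2 and 895.4 in MH-EVs. The MH-EV values lay within the range of the mesenchymal sources, on arrays whose spike-in controls were also dimmer. Raw rno-miR-152-3p in MH-EVs (264.9, 189.0 and 770.5) likewise overlapped all other sources. In bulk EV RNA, fewer vesicles and less of an miRNA per vesicle cannot be told apart.

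SH-EVs exceeded both mesenchymal sources in the miR-130 members. Against MSC-EVs the log2 difference was 1.88 ± 0.29 (SE) for rno-miR-130a-3p, or 3.68-fold, and 1.18 ± 0.22 for rno-miR-130b-3p, or 2.26-fold. The miR-148/miR-152 members differed by 0.88 ± 0.29 (rno-miR-148b-3p) and 1.14 ± 0.47 (rno-miR-152-3p). In the limma model across all tested probes, 3 of the 4 tested members passed the adjusted threshold of 0.05 as higher in SH-EVs, namely rno-miR-130a-3p, rno-miR-130b-3p and rno-miR-148b-3p, and 0 as lower. Of all 387 tested probes 15.5% were higher and 12.1% lower. The median difference was 1.16 over the 4 members and 0.09 over all tested probes. Nothing is read from this or the following counts, because the same values chose the members.

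Thy1-MC-EVs carried less of the miR-130 members than SH-EVs and overlapped them in the others. The difference, Thy1-MC-EVs minus SH-EVs, was -1.57 ± 0.29 for rno-miR-130a-3p (2.98-fold lower) and -1.17 ± 0.22 for rno-miR-130b-3p (2.26-fold lower). It was -0.47 ± 0.29 for rno-miR-148b-3p and -0.20 ± 0.47 for rno-miR-152-3p, where the arrays overlapped. Of the 4 tested members 2 passed as lower, beside 7.49% of all probes lower and 6.98% higher, with a median of -0.82 against 0.00 over all probes.

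With quantile normalization the miR-130 members lay closer between both mesenchymal sources than in any other comparison, whereas the miR-148/miR-152 members did not. The difference, Thy1-MC-EVs minus MSC-EVs, was 0.31 ± 0.29 for rno-miR-130a-3p, 0.00 ± 0.22 for rno-miR-130b-3p, 0.41 ± 0.29 for rno-miR-148b-3p and 0.95 ± 0.47 for rno-miR-152-3p. The limma model called 0 of 4, and 0 at an unadjusted p under 0.05, while the authors' normalized intensities called 1 as higher. Of all probes 12.7% passed as higher and 10.9% as lower in Thy1-MC-EVs. With 3 arrays a group this does not show that the members were at equal levels.

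Against MH-EVs the differences depended on how arrays were scaled. With quantile normalization SH-EVs exceeded MH-EVs by 3.37 ± 0.29 in rno-miR-130a-3p (10.4-fold), 2.05 ± 0.22 in rno-miR-130b-3p (4.13-fold), 0.95 ± 0.29 in rno-miR-148b-3p and 1.27 ± 0.47 in rno-miR-152-3p. After scaling to the spike-in controls the same differences were 0.29, -0.080, -1.27 and -1.35, and with the authors' normalization 1.56, 2.12, 0.09 and -0.13. That scaling moved the median of all tested probes to -2.27 with the spike-in controls and to -1.42 with the authors' normalization, from -0.06. Relative to that median every one of the 4 members stood higher in SH-EVs under all 3 scalings. A scaling factor shared by all probes of an array cancels there, and the same values chose the members, so nothing is read from this.

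The counts against MH-EVs carry the same limit. With quantile normalization 3 of 4 members passed as higher in SH-EVs, beside 15% of all probes higher and 17.6% lower. For Thy1-MC-EVs 2 of 4 passed as higher (1.80 ± 0.29 for rno-miR-130a-3p and 0.87 ± 0.22 for rno-miR-130b-3p), beside 14.5% higher and 15.5% lower. With the replicate numbers as a block the latter count was 3, with rno-miR-152-3p added. For MSC-EVs 2 of 4 passed as higher (1.50 ± 0.29 and 0.87 ± 0.22 for the same miRNAs), beside 14.7% higher and 20.7% lower. After spike-in scaling 2 members passed as lower in Thy1-MC-EVs, 1 in SH-EVs and 4 in MSC-EVs than in vesicles of MHs. Beside them 364, 360 and 374 of the 387 tested probes passed with that scaling, nearly all as lower, so nothing is read from these counts.

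**Figure D2:**
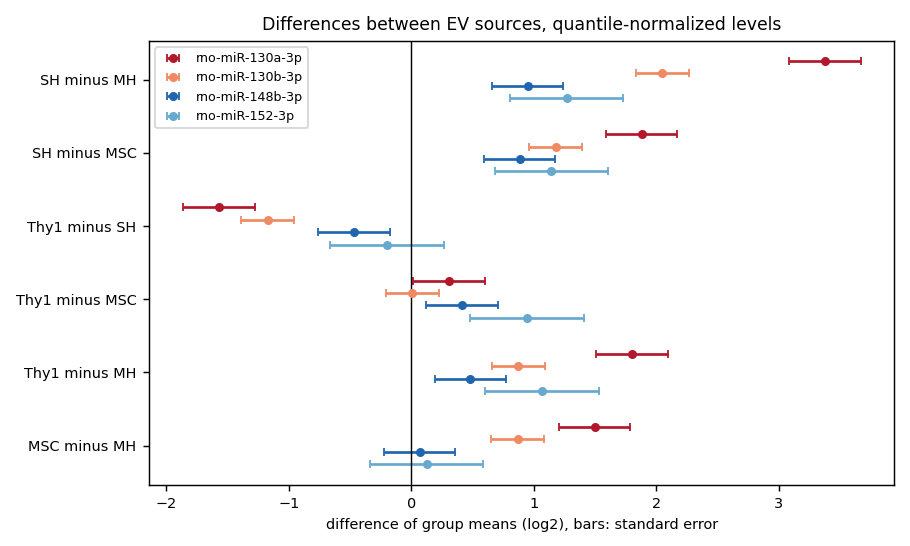
Difference of group means on the log2 scale for the 4 tested members in the 6 pairwise comparisons of EV sources, from quantile-normalized levels; points are differences and bars their standard errors. The miR-130 members differ by 1.88 and 1.18 between SH-EVs and MSC-EVs, and the Thy1 minus MSC differences lie between 0.00 and 0.95.

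How far the calls changed with the treatment is given as a description, since the same values chose the members. Those of rno-miR-130a-3p and rno-miR-130b-3p were made in the same comparisons when any 1 of the 12 arrays was left out. Among the 7 other treatments of the intensities, the call between SH-EVs and MSC-EVs was lost for rno-miR-130b-3p with 75th percentile scaling and for rno-miR-130a-3p with none. Between Thy1-MC-EVs and SH-EVs the spike-in controls ended both calls, and median scaling and the authors' normalization also that of rno-miR-130a-3p. The call of rno-miR-148b-3p between SH-EVs and MSC-EVs was lost with plain background subtraction (1.48), median scaling (0.49), the 75th percentile (0.55), cyclic loess (0.67) and the spike-in controls (1.32), and with all probes tested. It was also lost without MSC-EV array 1, 2 or 3 (0.85, 0.93 and 0.86), SH-EV array 2 or 3 (0.72 and 0.75), MH-EV array 1 or 2, or Thy1-MC-EV array 2 (0.88 each). Between SH-EVs and MH-EVs its call was lost with the authors' normalization (0.09) and with only both groups fitted, and turned with the spike-in controls (-1.27). There it was also lost without MH-EV array 1 or 2 (0.89 and 0.84) or SH-EV array 2 or 3 (0.78 and 0.82). A call of rno-miR-152-3p was gained between SH-EVs and MH-EVs without MH-EV array 3 (1.70), SH-EV array 1 (1.65) or Thy1-MC-EV array 3 (1.27). It was also gained between SH-EVs and MSC-EVs without SH-EV array 1 (1.52), and between Thy1-MC-EVs and MH-EVs without MH-EV array 3 (1.50).

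**Figure D3:**
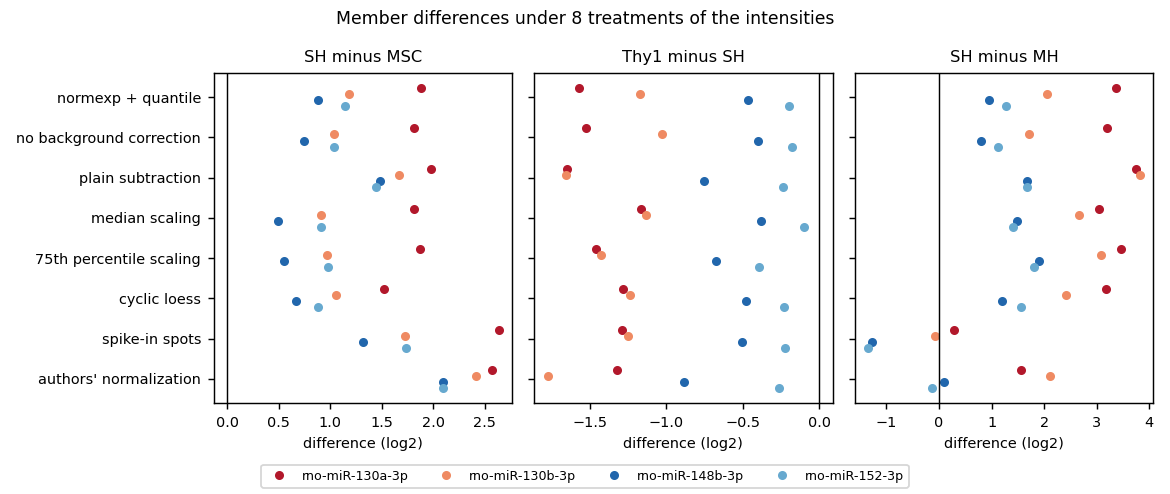
Log2 difference of the 4 tested members in 3 comparisons (columns) under 8 treatments of the intensities (rows). SH minus MSC is above 0 and Thy1 minus SH below 0 for all 4 members in every row, whereas SH minus MH falls to between -1.35 and 0.29 with the spike-in controls.

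A ratio of 2 background-subtracted probes on the same array does not depend on a scaling factor between arrays. Its size reflects how each probe binds, and only its change between sources is read; the ratio was added after the values had been seen. The log2 ratio of rno-miR-130a-3p to rno-miR-152-3p, from raw intensity minus the blank mean, was 3.06, 2.36 and 2.30 in SH-EVs and 2.17, 1.81 and 2.31 in MSC-EVs. It was 1.79, 1.70 and 1.04 in Thy1-MC-EVs and 1.18, 1.24 and 0.24 in MH-EVs. SH-EV arrays thus lay above every Thy1-MC-EV and MH-EV array and overlapped MSC-EVs in 1 value, while Thy1-MC-EVs and MH-EVs overlapped.

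The other pair of members was compared in the same way. The log2 ratio of rno-miR-130b-3p to rno-miR-148b-3p was 1.27, 0.73 and 0.84 in SH-EVs, 0.80, 0.68 and 0.61 in MSC-EVs, 0.94, -0.11 and -0.65 in Thy1-MC-EVs and -0.90, -1.03 and -1.32 in MH-EVs. The first MSC-EV value, 0.80, rests on an array where rno-miR-148b-3p was not detected. All MH-EV arrays lay below all others on this scale, whereas from normalized levels they read -0.33, -0.31 and -0.63 and overlapped the third Thy1-MC-EV array (-0.38). Between SH-EVs and MH-EVs the mean ratio differed by 1.69 for the first pair and by 2.03 for the second, and from normalized levels by 2.11 and 1.10. For both pairs the SH-EV arrays lay above all MH-EV arrays on either scale, which is a description of members chosen with their levels known.

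**Figure D4:**
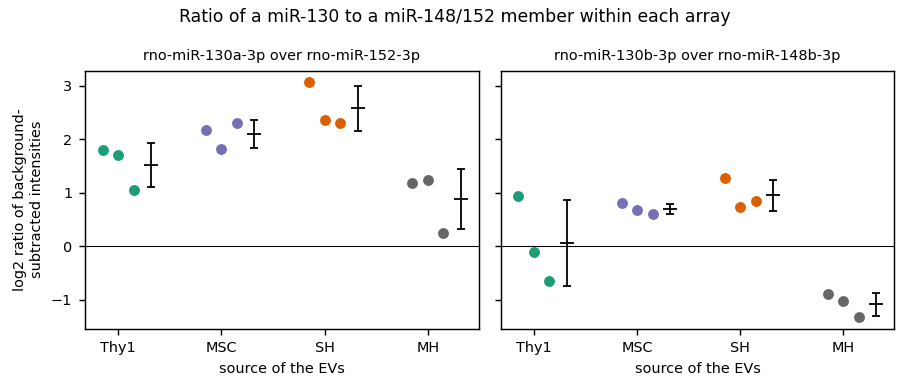
Log2 ratio of a miR-130 member to a miR-148/miR-152 member on each array, from intensities minus the blank background; dots are arrays and black bars the mean ± SD of 3. SH-EV arrays reach 2.30 to 3.06 for rno-miR-130a-3p over rno-miR-152-3p and MH-EV arrays 0.24 to 1.24, and for rno-miR-130b-3p over rno-miR-148b-3p the MH-EV arrays are the lowest on this scale, at -1.32 to -0.90; rno-miR-148b-3p was not detected on the first MSC-EV array (0.80).

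Ratios within a family changed their order with the scale. From subtracted intensities the log2 ratio of rno-miR-130a-3p to rno-miR-130b-3p was 2.84 to 3.10 in MSC-EVs, 2.99 to 3.40 in SH-EVs, 3.13 to 3.93 in Thy1-MC-EVs and 3.35 to 3.94 in MH-EVs. From normalized levels SH-EVs were highest (3.10 to 3.21) and MH-EVs lowest (1.62 to 2.16), with Thy1-MC-EVs at 2.44 to 2.98 and MSC-EVs at 2.23 to 2.67. The subtracted ratio of rno-miR-152-3p to rno-miR-148b-3p was 2.06 to 2.28 in Thy1-MC-EVs, above all MSC-EV (1.34 to 1.97) and SH-EV arrays (1.43 to 1.62), with MH-EVs at 1.28 to 2.38. From normalized levels Thy1-MC-EVs (1.23 to 1.65) overlapped MSC-EVs (0.72 to 1.32), SH-EVs (1.03 to 1.30) and MH-EVs (0.57 to 1.39). rno-miR-148b-3p was dim on several of these arrays, so its ratios rest on small differences from the background.

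Across the 12 arrays the 4 members rose and fell together, more closely within a family than across. Pearson's r of the normalized levels was 0.98 for rno-miR-130a-3p with rno-miR-130b-3p and 0.94 for rno-miR-148b-3p with rno-miR-152-3p, and 0.72 to 0.83 for the 4 pairs across families. Many other probes were closer than the other family. Among 385 probes rno-miR-152-3p ranked 30 for rno-miR-130a-3p and 36 for rno-miR-130b-3p, and rno-miR-148b-3p ranked 19 and 20. After the mean of each source was removed, r was 0.79 to 0.96 over all 6 pairs. The deviations had a common shape: the first array of Thy1-MC-EVs and of SH-EVs was low for rno-miR-152-3p (-0.72 and -0.76 from the mean of its source) and for rno-miR-148b-3p (-0.48 and -0.60), and the third MH-EV array was high (0.86 and 0.35). These r describe arrays that share sources, normalization and the number of probes detected, and the part of these in the likeness was not tested.

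The miRNAs most like the members were few and recurrent. Of the probes that are no members, rno-miR-99b-5p came first for both rno-miR-130a-3p (r = 0.99) and rno-miR-130b-3p (0.95) over the 12 arrays. rno-let-7e-5p (0.96 and 0.92) and rno-miR-320-3p (0.95 and 0.94) were the other two. rno-miR-99b-5p and rno-let-7e-5p lie 173 bases apart on chromosome 1 of GRCr8, start to start. rno-let-7e-5p, of the let-7 family of differentiation miRNAs, read 10.06 to 10.41 in SH-EVs, 8.66 to 9.78 in Thy1-MC-EVs, 8.01 to 8.47 in MSC-EVs and 6.38 to 6.68 in MH-EVs. For rno-miR-148b-3p the nearest were rno-miR-425-5p (0.96), rno-miR-107-3p (0.95) and rno-miR-128-3p (0.94), and for rno-miR-152-3p they were rno-miR-128-3p (0.94), rno-miR-140-3p (0.92) and rno-miR-28-5p (0.90). No probe came in the first 3 of both families.

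Other miRNAs with a seed close to the members behaved differently. In RefSeq, 3 more miRNAs of the array shared a run of at least 6 bases within bases 1 to 8 with a member: rno-miR-19a-3p, rno-miR-19b-3p and rno-miR-291b. The first pair belongs to the miR-17/92 clusters, which promote proliferation, and rno-miR-291b is a relative of the stem cell cluster miR-290. The run GUGCAA, bases 3 to 8 of the miR-130/miR-301 sequences, is bases 2 to 7 of the miR-19 pair, and rno-miR-291b shares AGUGCA.
rno-miR-19a-3p: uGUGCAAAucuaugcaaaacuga
rno-miR-19b-3p: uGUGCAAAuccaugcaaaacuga
rno-miR-291b: aAAGUGCAuccauuuuguuagu

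rno-miR-19b-3p, which the choice of members did not use, was lowest in Thy1-MC-EVs. It read 8.13, 8.01 and 7.64 there, 8.91, 9.42 and 9.54 in MSC-EVs, 9.46, 9.62 and 9.62 in SH-EVs and 9.82, 9.69 and 9.99 in MH-EVs. Thy1-MC-EVs overlapped no other source and were lower by 1.37 (SE 0.18) than MSC-EVs (limma, adjusted p = 0.00035) and by 1.64 than SH-EVs (limma, adjusted p = 0.00024). The gap to MH-EVs was -1.90 (limma, adjusted p = 2.7e-05). The direction held under all 7 other background corrections and scalings, and the call was lost with the spike-in controls against MSC-EVs and SH-EVs and with the authors' normalization against MSC-EVs.

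rno-miR-19a-3p and rno-miR-291b gave less. rno-miR-19a-3p was detected on all arrays of SH-EVs and MH-EVs only, on 1 of 3 in Thy1-MC-EVs and on 2 of 3 in MSC-EVs. Its level in Thy1-MC-EVs thus rests mostly on values at or under the limit, and the size of its differences there is uncertain. It fell short of the MH-EV level by 0.81 ± 0.19 (SE) in Thy1-MC-EVs (limma, adjusted p = 0.0075), a call lost with median and 75th percentile scaling. Against MSC-EVs and SH-EVs it differed by -0.33 (limma, adjusted p = 0.24) and -0.43 (limma, adjusted p = 0.16). Between SH-EVs and MSC-EVs, where the miR-130 members differed most among the sources without MHs, rno-miR-19a-3p differed by 0.10 ± 0.19 (limma, adjusted p = 0.75) and rno-miR-19b-3p by 0.27 ± 0.18 (limma, adjusted p = 0.31). rno-miR-19b-3p was also 0.54 lower in MSC-EVs than in MH-EVs (limma, adjusted p = 0.040), a call lost without any 1 of 7 arrays (Thy1-MC-EV array 2, MSC-EV array 1, SH-EV array 2 or 3, or any MH-EV array; 0.35 to 0.61 lower), with plain background subtraction, the 75th percentile and cyclic loess, and with the replicate block. rno-miR-291b was detected on 1 array and not tested.

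**Figure D5:**
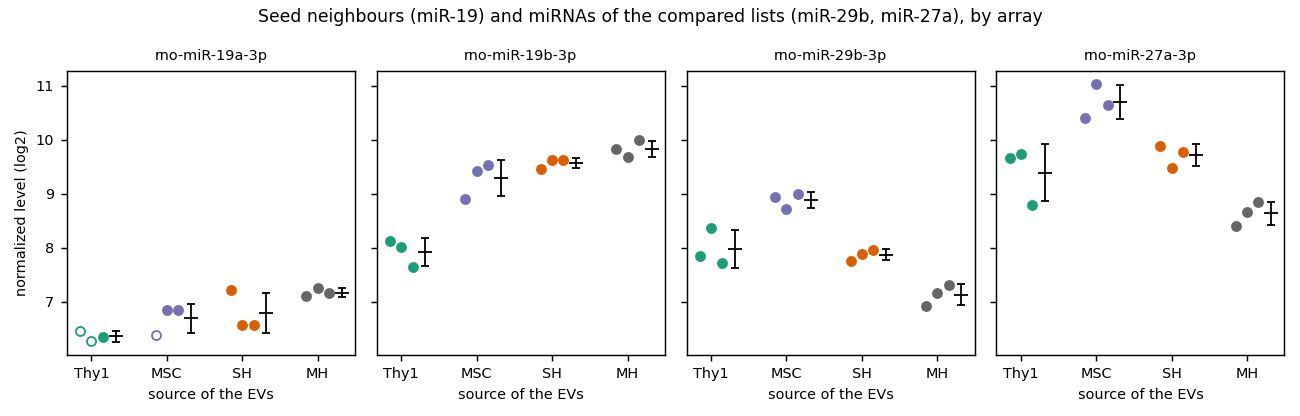
Normalized log2 level on each array of the seed neighbours rno-miR-19a-3p and rno-miR-19b-3p and of rno-miR-29b-3p and rno-miR-27a-3p; filled circles are detected values, open circles not detected, black bars the mean ± SD of 3 arrays. rno-miR-19b-3p is lowest in Thy1-MC-EVs (7.64 to 8.13), and rno-miR-29b-3p and rno-miR-27a-3p are highest in MSC-EVs with this normalization, though below MH-EVs with the spike-in controls.

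The miRNAs known for the same targets had other profiles. The miR-29 family also lowers DNA methyltransferases, in human cells DNMT3A and DNMT3B directly, and its 3 members were all tested. rno-miR-29b-3p was highest in MSC-EVs with quantile normalization but not with the spike-in controls, at 8.94, 8.71 and 8.99, while Thy1-MC-EVs read 7.85, 8.37 and 7.72 and SH-EVs 7.76, 7.89 and 7.96. It was lower in SH-EVs than in MSC-EVs by 1.01 ± 0.18 (limma, adjusted p = 0.0016) and in Thy1-MC-EVs by 0.90 (limma, adjusted p = 0.0045). Both calls were lost under median, 75th percentile and spike-in scaling and the authors' normalization, and with the spike-in controls the first difference was 0.01. rno-miR-29a-3p and rno-miR-29c-3p passed in no comparison without MHs.

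The miR-27 family represses PPARG, in human and mouse fat cells, and both its members were tested. rno-miR-27a-3p was likewise highest in MSC-EVs except with the spike-in controls and the authors' normalization, where MH-EVs were above, at 10.41, 11.04 and 10.64. It was lower in Thy1-MC-EVs by 1.30 ± 0.25 (limma, adjusted p = 0.0045), with a direction that held under all 7 other treatments and a call lost with the spike-in controls and the authors' normalization. It was lower in SH-EVs by 0.99 (limma, adjusted p = 0.014), a call lost under 5 treatments and without MSC-EV array 2 (0.82) or SH-EV array 2 (0.87). rno-miR-27b-3p passed in no comparison without MHs. Among the 3 sources other than MHs, rno-miR-27a-3p was thus highest in MSC-EVs and the miR-130 members in SH-EVs.

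Against MH-EVs the lists changed sign with the scaling, as the members did. With quantile normalization rno-miR-29b-3p was higher in MSC-EVs by 1.74, in Thy1-MC-EVs by 0.84 and in SH-EVs by 0.74, and rno-miR-27a-3p by 2.06, 0.76 and 1.08, and each of these 6 differences fell below 0 with the spike-in controls and, except rno-miR-29b-3p in MSC-EVs, with the authors' normalization. rno-miR-29c-3p was 0.84 ± 0.19 below MH-EVs in Thy1-MC-EVs (limma, adjusted p = 0.0068), a call and direction kept under all 7 other treatments. rno-miR-27b-3p passed between MSC-EVs and MH-EVs as 0.94 higher (limma, adjusted p = 0.013), a call lost with median and 75th percentile scaling and without MH-EV array 1 (0.81), and was below 0 with the spike-in controls (-3.16) and the authors' normalization (-1.90).

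The labelled cell types were set against their markers. rno-miR-122-5p, the hepatocyte miRNA, read 13.77 to 14.29 in MH-EVs and 7.98 to 10.34 elsewhere, SH-EVs included (7.98 to 9.04). The summed level of the 4 hepatocyte markers was 14.01 to 14.54 in MH-EVs against 9.36 to 10.84 in the others. Among the other sources these markers disagreed. rno-miR-192-5p and rno-miR-194-5p had higher means in SH-EVs (7.88 and 7.07) than in Thy1-MC-EVs (6.74 and 6.54) and MSC-EVs (6.44 and 5.99), where neither was detected. rno-miR-365-3p had a lower mean in SH-EVs (7.07) than in Thy1-MC-EVs (7.66) and MSC-EVs (7.96). The summed level of the 7 mesenchymal markers was 11.93 to 12.86 in both mesenchymal sources, 10.57 to 10.83 in SH-EVs and 11.14 to 11.82 in MH-EVs. Not all went this way: rno-miR-100-5p had its highest mean in MH-EVs (9.49, against 9.24 in Thy1-MC-EVs and 8.42 in MSC-EVs). rno-miR-214-3p overlapped MH-EVs in both mesenchymal sources. These sums are from quantile normalization, and with the spike-in controls all 7 were lower in both mesenchymal sources than in MH-EVs (-4.86 to -0.46).

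Markers of blood cells also moved with the sources. The 2 erythroid markers summed to 10.56 to 11.51 in Thy1-MC-EVs and 11.94 to 12.21 in MSC-EVs against 6.78 to 7.03 in SH-EVs and MH-EVs, where rno-miR-451-5p was detected on 1 of 6 arrays. The 5 leukocyte markers summed to 9.62 to 10.01 in MSC-EVs, 8.82 to 9.10 in Thy1-MC-EVs, 8.49 to 8.62 in SH-EVs and 8.67 to 8.90 in MH-EVs. The 2 endothelial markers were lowest in SH-EVs (7.06 to 7.16). The 5 epithelial markers, 1 of them on no array detected, were highest there (8.60 to 8.72 against 8.27 to 8.44). No endothelial or epithelial marker was detected on all 12 arrays, and of the leukocyte markers rno-miR-142-3p was detected on 2 and rno-miR-155-5p on 1. The sums therefore include values at the detection limit and do not measure the share of a cell type. The part of these cell types in the differences of the members was not tested.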

How the data were processed

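The authors deposited, for each of 12 arrays (4 groups of 3), 3 columns of intensity per probe: raw, with the background subtracted, and globally normalized to an intensity whose median over detected probes is 25. Groups and replicate numbers came from the sample titles. Probes with a deposited background-subtracted value counted as detected. The detection limit quoted is the trimmed (5% at each end) blank mean plus 2 SD, which reproduced this except for at most 3 probes on an array. Raw intensities were background-corrected against the blank mean (normexp, offset 50), quantile-normalized, log2-transformed and fitted with limma 3.58.1 in R 4.3.3 (lmFit and eBayes, 1 mean per group, 6 pairwise comparisons). Tests were run on 387 of 727 probes, those seen on all 3 arrays of some group, with Benjamini-Hochberg adjustment within a comparison and a threshold of 0.05; 2 flagged values were left out. The model was tested on simulated data. The number of arrays limits the precision.

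The members, lists and rules were chosen with earlier results of these data known. Named were all members, their partner arms and seed neighbours, the 3 probes most like each member by Pearson's r, 2 lists of miRNAs with like targets, and single defining markers of the cell types. Each whole marker list was summed as the log2 of added normalized intensities. Sequences and positions are from RefSeq (GRCr8). rno-miR-301a-3p is named only.

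Alternatives were other background corrections, scalings, filters and fits, the methods' t-test, a replicate block and leaving out each array. For Thy1-MC-EVs and MH-EVs the 3 same-numbered pairs of arrays shared their deviations from the group means (r of 0.32, 0.20 and 0.32), and all 6 arrays correlated best with their own number. The meaning of a number is not stated, and in every other comparison at least 1 pair had r under 0.1. The combined table of normalized values was not used.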

Additional observations from a re-analysis of the deposited data

How the results depend on the processing

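The differences between SH-EVs and both mesenchymal sources kept their direction for rno-miR-130a-3p and rno-miR-130b-3p under all alternatives run, whereas those with MH-EVs turned with the scaling, except SH minus MH of rno-miR-130a-3p (0.29 to 3.75). With the spike-in controls Thy1 minus MH was -1.0004, -1.34, -1.77 and -1.57 for rno-miR-130a-3p, rno-miR-130b-3p, rno-miR-148b-3p and rno-miR-152-3p, SH minus MH was -0.080, -1.27 and -1.35 for the last 3 of these, and MSC minus MH was -2.35, -1.81, -2.59 and -3.09 for rno-miR-130a-3p, rno-miR-130b-3p, rno-miR-148b-3p and rno-miR-152-3p. With the authors' normalized intensities MSC minus MH was -1.01, -0.30, -2.01 and -2.22 in the same order, Thy1 minus MH was -0.80 and -0.39 for rno-miR-148b-3p and rno-miR-152-3p, and SH minus MH was -0.13 for rno-miR-152-3p. The cause was not tested.

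Members called moved as follows. Between Thy1-MC-EVs and SH-EVs the count of 2 became 1 with median scaling and the authors' normalization and 0 with the spike-in controls and the adjusted t-test of the methods. Between Thy1-MC-EVs and MH-EVs it went from 2 to 4 with median and 75th percentile scaling and to 0 with the authors' normalization. Between SH-EVs and MSC-EVs it went from 3 to 1 with the 75th percentile and the adjusted t-test, and between SH-EVs and MH-EVs from 3 to 1 (lower) with the spike-in controls. Between MSC-EVs and MH-EVs it went from 2 to 4 with the spike-in controls (all lower) and with all probes tested. In the latter case the added calls were rno-miR-301a-3p and rno-miR-301b-3p, which lie at the detection limit and are otherwise not tested. With the authors' normalization the count stayed at 2, but both calls were lower in MSC-EVs, for rno-miR-148b-3p (-2.01) and rno-miR-152-3p (-2.22). The calls of rno-miR-130a-3p and rno-miR-130b-3p were lost there. Between Thy1-MC-EVs and MSC-EVs the authors' normalization gave 1.

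Seed neighbours called fell from 1 to 0 with the spike-in controls for Thy1-MC-EVs against MSC-EVs and against SH-EVs, and in the former also with the authors' normalization and the adjusted t-test. Against MH-EVs, 2 in Thy1-MC-EVs became 1 with median and 75th percentile scaling and among probes detected on all arrays. In SH-EVs 0 became 1 with cyclic loess and 2 with the spike-in controls and the authors' normalization. In MSC-EVs 1 became 2 with those latter scalings and 0 under plain subtraction, the 75th percentile, cyclic loess, other filters, only both groups fitted, and the adjusted t-test.

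Of all probes, the main counts for Thy1-MC-EVs minus MSC-EVs, SH-EVs and MH-EVs were 91 (49 higher), 56 (27 higher) and 116 (56 higher), and for SH minus MSC, SH minus MH and MSC minus MH 107 (60 higher), 126 (58 higher) and 137 (57 higher). Median scaling gave 38 (17 higher), 28 (19 higher), 121 (91 higher), 64 (22 higher), 111 (71 higher) and 254 (214 higher) in that order, and the 75th percentile 30 (8 higher), 23 (8 higher), 92 (70 higher), 51 (20 higher), 137 (117 higher) and 263 (239 higher). Cyclic loess gave 42 (15 higher) for Thy1 minus MSC and 69 (27 higher) for SH minus MSC. The spike-in controls gave 31 (28 higher), 5 (4 higher), 364 (1 higher), 47 (39 higher), 360 (0 higher) and 374 (1 higher). The authors' normalization gave 68 (58 higher), 226 (9 higher), 112 (83 higher), 232 (14 higher) and 263 (14 higher) for all but Thy1 minus SH. Probes detected on all arrays, fewer by construction, gave 44, 62, 50, 69 and 64 for all but Thy1 minus SH. The adjusted t-test gave 24, 18, 74, 56, 80 and 89, plain subtraction 32 and the unadjusted t-test 103 for Thy1 minus SH.

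With each array left out in turn, the members called ranged over 2 to 3 for Thy1 minus MH, over 2 to 4 for SH minus MSC and SH minus MH, and stayed at 0, 2 and 2 for Thy1 minus MSC, Thy1 minus SH and MSC minus MH. Seed neighbours ranged over 0 to 1 for SH minus MH and 0 to 2 for MSC minus MH. All probes called ranged from 62 to 107, 31 to 74, 88 to 124, 78 to 116, 92 to 137 and 105 to 144; for Thy1 minus SH they were 35 and 31 without Thy1-MC-EV array 1 and 2 and 34 and 32 without SH-EV array 2 and 3.

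With the replicate block the members called were 3 for Thy1 minus MH, 4 for SH minus MSC and 4 for SH minus MH, each with rno-miR-152-3p added, and 0 seed neighbours were called for MSC minus MH in place of 1. The block changed no other count of members, partner arms or seed neighbours, and gave 70 calls over all probes for Thy1 minus SH. In no comparison but Thy1 minus MH did all 6 arrays correlate best with their own number.

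The signal over background limits rno-miR-301a-3p, rno-miR-301b-3p, rno-miR-148b-3p in MSC-EVs, rno-miR-19a-3p in Thy1-MC-EVs and MSC-EVs, and the partner arms.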
